A study of Mus musculus with 4 samples.

Results

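The stefin A cluster of mouse chromosome 16 was examined for DNA methylation in cultured germline stem cells of 2 culture ages. Its 4 members here are Csta2, Stfa1, Stfa2 and Stfa3, found by symbol among 49550 annotated genes on chromosomes 1 to 19 and X, of which 21627 are protein-coding. Csta2 was chosen by its own methylation loss in these tables, and Stfa1, Stfa2 and Stfa3 were added as its paralogs by name. Values of the Csta2 start are therefore given as a description with no test, and the question tested is whether Stfa1, Stfa2, Stfa3 and the other stefin-named genes of chromosome 16, 7 in number, share the loss.

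Germline stem (GS) cells are mouse spermatogonial stem cells kept in long-term culture. In the testis these cells replenish their own pool and feed sperm production. The 60M-GS cells had been cultured for about 60 months and the 5M-GS cells for about 5 months. Cells of both ages were wild type by label and came from testis of Green mice on a DBA/2 background, whose EGFP transgene, C57BL/6 Tg14(act-EGFP)OsbY01, both ages carry, and both grew in Iscove's-based medium with 10 ng/ml FGF2, 15 ng/ml GDNF and 1% fetal bovine serum. Whether the cultures of each age descend from 1 line or from several is not given in the sources used here. Genomic DNA of 2 replicates of each age was sequenced after bisulfite conversion, which leaves methylated cytosine readable as C, with adaptors added after that step (post-bisulfite adaptor tagging).

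Each age has 1 table that pools its 2 replicates, so the spread between replicates could not be measured, and every test below compares 2 pooled libraries and not the culture ages as such. Intervals are 95% intervals (Wilson for levels, Newcombe for differences) and cover counting error only. They and the tests treat all calls as independent. Neighbouring CpGs read on the same molecule are not, so intervals may be too narrow and p-values too small. The 60M-GS table held 471693518 methylation calls with a median of 22 per CpG, and the 5M-GS table held 468121185 with a median of 21. A total of 17634196 CpGs reached 5 calls at both ages, and the level of a region below is its methylated calls on such CpGs in percent of its methylated and unmethylated calls together. As a check of the label, the 5' windows of the germline genes Ddx4, Dazl, Mael, Sycp1, Tdrd1 and Asz1 lay between 0.684% and 12.4% in 60M-GS and between 2.79% and 11.8% in 5M-GS. The imprinted genes Peg3, Mest, Plagl1 and Peg10, unmethylated in male germ cells, had a CpG-rich end between 0.590% and 5.41% in 60M-GS and between 0.952% and 5.68% in 5M-GS, whereas the outermost annotated end of Snrpn had 55.6% in 60M-GS, against 41.5% in 5M-GS. The stretch upstream of H19 that male germ cells methylate had 61.8% in 60M-GS, against 78.2% in 5M-GS.

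Stefins are type 1 cystatins, small proteins that stay inside the cell and block papain-like cysteine proteases such as cathepsins B, H, L and S. Human carries a single stefin A gene, CSTA, while the mouse has a row of copies, best known from neutrophils, other myeloid cells and skin. In most mammalian cells CpG-poor promoters of this kind are highly methylated where the gene is silent, and CpG-rich promoters are mostly unmethylated whatever the gene does. Expression was not measured in the tables used here.

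In the RefSeq annotation Csta2 spans chr16:36221562-36257447, Stfa1 chr16:36277148-36285371, Stfa2 chr16:36403946-36408363 and Stfa3 chr16:36450537-36455392, with exons and UTRs not annotated in the table used. The promoters of the 4 members are shown first, because the methylation loss lies on the one whose sequence is unlike the others. Each run is the RefSeq sequence (GRCm38.p6) from 250 bases before to 50 bases after the annotated start, written 5' to 3' on the gene's strand, with every CpG in capitals. They lie at chr16:36221312-36221611 (plus strand) for Csta2, chr16:36276898-36277197 (plus strand) for Stfa1, chr16:36408314-36408613 (minus strand) for Stfa2 and chr16:36455343-36455642 (minus strand) for Stfa3.
Csta2: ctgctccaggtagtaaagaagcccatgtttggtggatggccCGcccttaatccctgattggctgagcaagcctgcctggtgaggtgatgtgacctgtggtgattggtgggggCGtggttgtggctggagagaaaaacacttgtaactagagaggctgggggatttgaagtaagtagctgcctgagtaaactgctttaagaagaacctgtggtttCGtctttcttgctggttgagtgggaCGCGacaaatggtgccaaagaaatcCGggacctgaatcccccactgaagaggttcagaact
Stfa1: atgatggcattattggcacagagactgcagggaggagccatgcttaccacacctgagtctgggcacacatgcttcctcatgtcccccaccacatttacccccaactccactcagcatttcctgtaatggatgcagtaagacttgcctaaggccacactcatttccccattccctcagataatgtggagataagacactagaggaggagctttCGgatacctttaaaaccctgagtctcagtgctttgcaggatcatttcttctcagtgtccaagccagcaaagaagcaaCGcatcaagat
Stfa2: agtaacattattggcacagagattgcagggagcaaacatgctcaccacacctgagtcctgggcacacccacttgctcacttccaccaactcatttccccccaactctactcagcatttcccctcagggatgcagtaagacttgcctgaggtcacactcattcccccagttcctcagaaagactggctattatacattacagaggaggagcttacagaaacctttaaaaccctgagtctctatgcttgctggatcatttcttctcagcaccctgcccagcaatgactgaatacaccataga
Stfa3: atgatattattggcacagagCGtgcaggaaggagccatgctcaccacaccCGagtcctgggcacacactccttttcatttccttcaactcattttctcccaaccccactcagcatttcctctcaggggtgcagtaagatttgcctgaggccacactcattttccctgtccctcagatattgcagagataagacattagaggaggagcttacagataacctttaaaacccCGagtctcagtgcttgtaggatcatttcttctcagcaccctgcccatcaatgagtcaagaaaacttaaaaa

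The Csta2 promoter held 6 CpGs, near the median of 7 over the 32851 promoters of the RefSeq table, and Stfa1 held 2, Stfa2 held 0 and Stfa3 held 3. Across all 11 stefin promoters of 10 genes in that table, those other than Csta2 held 0 to 3. Aligned end to end, the Stfa promoters were 78.2% (Stfa1 and Stfa2), 80.6% (Stfa1 and Stfa3) and 80.9% (Stfa2 and Stfa3) identical. Csta2 was 44.5% identical to Stfa1, 45.0% to Stfa2 and 42.8% to Stfa3. Against all 10 other stefin promoters its identity ranged from 39.8% to 45.0%, with no shared run longer than 11 bases. The 45 pairs that leave Csta2 out ranged from 42.6% to 90.5% with a median of 63.1%, so low identity was not confined to Csta2.

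Of the runs of 12 or more bases that stand in all of Stfa1, Stfa2 and Stfa3, 5 in number, none was in the Csta2 promoter. The run acctttaaaaccc, 33 bases before the Stfa1 start, was in 8 of the 11 stefin promoters and in Gm7260, and in 0.0274% of all 32851 promoters. The run ggatcatttcttctcag, which begins 1 base before the Stfa1 start, was in 6 promoters in all (0.0183%), each of a stefin gene. The others were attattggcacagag in 5 promoters, each of a stefin gene, actcagcatttcc in 10, of which 8 were of stefin genes, and agaggaggagctt in 4, of which the one outside the family was Col10a1. These runs were picked out after the sequences had been seen. They were sought on the gene's strand in Stfa1, Stfa2 and Stfa3, and then counted on both strands of every promoter. They are given as letters and not as binding sites.

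The Csta2 loss covered the start of the gene on both sides. In the window from 1000 bp outside to 500 bp inside the RefSeq start (chr16:36220562-36222061, 21 CpGs), the level was 29.3% (25.7 to 33.2, 559 calls) in 60M-GS, against 81.2% (77.5 to 84.5, 469 calls) in 5M-GS. The difference was -51.9 percentage points (-56.8 to -46.5), 60M-GS minus 5M-GS as in all differences here. In a wider window, from 2000 bp outside to 1000 bp inside, it was -34.2 points. In the 300-base promoter, with 5 of its CpGs covered in both tables, the level was 19.6% of 92 calls in 60M-GS, against 91.0% of 89 calls in 5M-GS, a difference of -71.4 points (-79.5 to -59.4).

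Single CpGs within the window had levels of 6.67% to 60% with a median of 30.8% in 60M-GS, and of 6.90% to 100% with a median of 86.7% in 5M-GS. Of the 21, 20 were lower in 60M-GS, each by at least 20 points. The lowest levels stood at the start itself, on CpGs within the promoter sequence shown above. At 36 bases before the start, 1 of 10 calls was methylated in 60M-GS, against 12 of 14 in 5M-GS. At 11 bases before it the calls were 1 of 15 in 60M-GS, against 9 of 9 in 5M-GS. At 9 bases before it, on the neighbouring CpG of the same CGCG letters, they were 1 of 15 in 60M-GS, against 8 of 8 in 5M-GS. These positions had few calls each, and the neighbours at 11 and 9 bases are close enough to share reads.

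Positions with more calls showed the same direction. At 209 bases before the start, 40% of 25 calls were methylated in 60M-GS, against 90.5% of 42 in 5M-GS. Inside the gene, 69 bases after the start, the level was 30.8% of 39 calls in 60M-GS, against 86.7% of 45 calls in 5M-GS, and at 83 bases it was 24.6% of 61 calls in 60M-GS, against 87.0% of 46 calls in 5M-GS. The exception within the window lay 190 bases after the start, where 2 of 26 calls were methylated in 60M-GS, against 2 of 29 in 5M-GS. That CpG was near 0 at both ages although the CpGs on either side of it were methylated in 5M-GS. Whether each CpG of the mm10 reference is present in the genome of these cells, of mixed C57BL/6 and DBA/2 label, cannot be read from the tables.

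The edges of the loss were sharp upstream and gradual inside the gene. At 1264 and 1254 bases before the start, 15 of 15 calls each were methylated in 60M-GS, against 15 of 16 and 14 of 14 in 5M-GS. At 913 bases before it, the next covered CpG, the level was 31.6% of 19 calls in 60M-GS, against 73.1% of 26 calls in 5M-GS. Further out, at 1391 bases before the start, the sign was opposite, with 16 of 17 calls methylated in 60M-GS, against 8 of 22 in 5M-GS. Inside the gene the difference narrowed as the 5M-GS level was itself lower. At 570 bases after the start, 22.6% of 53 calls were methylated in 60M-GS, against 66.7% of 36 in 5M-GS. At 862 bases they were 9.30% of 43 calls in 60M-GS, against 41.4% of 29 in 5M-GS. At 1186 bases the sign had turned, with 41.7% of 36 calls in 60M-GS, against 20% of 35 in 5M-GS.

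From the first to the last CpG of this run of losses, chr16:36220649-36222424, the stretch spans 1776 bp with 24 CpGs. Its level was 26.6% in 60M-GS, against 76.7% in 5M-GS, a difference of -50.1 points (-54.7 to -45.1). Its ends were set from the differences themselves, so the size of the loss within it is no evidence beyond the window.

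**Figure D1:**
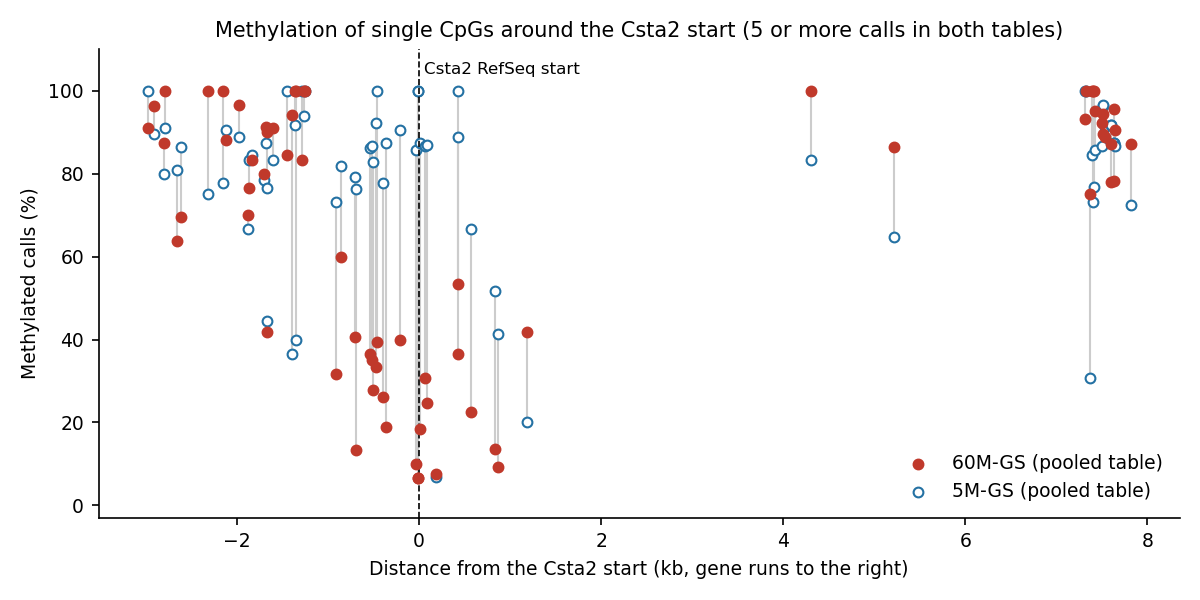
Percent of methylated calls (vertical axis) on single CpGs with 5 or more calls in both tables, by distance in kb from the Csta2 start (horizontal axis, gene running to the right), for the pooled 60M-GS table (filled points) and the pooled 5M-GS table (open points). Around the start the 60M-GS points drop to a median of 30.8% over the 21 CpGs of the window while the 5M-GS points have a median of 86.7%, and the CpG 190 bases after the start is near 0 at both ages.

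The rest of Csta2 was highly methylated at both ages. Beyond 2000 bp from its start the 151 covered CpGs of the gene had 89.3% in 60M-GS, against 85.9% in 5M-GS, a difference of 3.40 points (1.85 to 4.93) in the opposite direction to the start. Over the whole span of 35886 bp the level was 82.9% in 60M-GS, against 84.0% in 5M-GS (difference -1.11 points, -2.78 to 0.551), so the loss at the start hardly moved the level of the gene. The window at the far end of Csta2 held 2 CpGs and was not tested. It had 58.3% in 60M-GS, against 54.0% in 5M-GS.

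The starts of Stfa1, Stfa2 and Stfa3 did not pass the test for a change, and none of their windows came near the size of the Csta2 loss. Windows of protein-coding gene ends were tested for a difference in methylated and unmethylated calls with a two-sided Fisher's exact test, and p-values were adjusted over all windows by the Benjamini-Hochberg method. A window counts as called where the adjusted p is below 0.05 and the difference is 20 points or larger. By this rule 0.282% of the 39337 protein-coding windows of the genome were called lower in 60M-GS and 3.39% higher. Of the 5 windows of Stfa1, Stfa2 and Stfa3 that held the required 4 CpGs, 0 were called in either direction.

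Stfa1, the nearest member to Csta2 on its far side, had 90.9% (86.8 to 93.8) of 264 calls methylated at its start in 60M-GS, against 91.3% of 286 calls in 5M-GS. The difference over 10 CpGs was -0.350 points (-5.27 to 4.47, adjusted p = 1 by Fisher's exact test). Its single CpGs ranged from 77.8% to 100% in 60M-GS and from 83.3% to 97.2% in 5M-GS, and none moved by 20 points. The CpG in its promoter 38 bases before the start, which stands just before the shared run acctttaaaaccc, had 77.8% of 27 calls in 60M-GS, against 83.3% of 24 calls in 5M-GS. The CpG 39 bases after the start had 97.8% of 46 calls in 60M-GS, against 93.2% of 44 calls in 5M-GS. Stfa1 was therefore methylated on both sides of its own start. These positions are not matched in sequence to the lowest CpGs of Csta2.

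Stfa2, transcribed from the opposite strand, had 92.3% (86.4 to 95.8) of 130 calls in 60M-GS, against 91.7% of 145 calls in 5M-GS at its start. The difference over 5 CpGs was 0.584 points (-6.26 to 7.19, adjusted p = 1 by Fisher's exact test). No CpG lies in its 300-base promoter, so this level comes from CpGs at 465 bases after the start and from 447 bases before it outwards, ranging from 86.7% to 100% in 60M-GS and from 84.2% to 100% in 5M-GS. At its 3' end the level was 92.4% in 60M-GS, against 90.2% in 5M-GS, a difference of 2.18 points (adjusted p = 0.882 by Fisher's exact test). In the wider window, from 2000 bp outside to 1000 bp inside, both signs turned, with -0.812 points at the start and -1.29 at the 3' end, again not called.

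Stfa3 had 86.2% (79.7 to 90.9) of 145 calls in 60M-GS, against 88.6% of 149 calls in 5M-GS at its start. The difference over 7 CpGs was -2.38 points (-10.1 to 5.31, adjusted p = 0.855 by Fisher's exact test). Of these 7 CpGs, 1 was lower by more than 20 points. It lies 21 bases before the start and had 2 of 5 calls methylated in 60M-GS, against 14 of 17 in 5M-GS, too few calls to place its level. With every CpG weighted alike this CpG counts for more, and the Stfa3 difference became -8.63 points, again not called. The other promoter CpGs of Stfa3 had 87.5% in 60M-GS, against 89.3% in 5M-GS at 200 bases before the start, and 90.9% in 60M-GS, against 88.9% in 5M-GS at 230 bases before it. At the 3' end of Stfa3 the level was 88.1% in 60M-GS, against 88.8% in 5M-GS (difference -0.680 points, adjusted p = 1 by Fisher's exact test), and in the wider window the difference was 3.07 points, again not called. The 3' window of Stfa1 held 2 CpGs and was not tested, with 90% in 60M-GS, against 90.9% in 5M-GS.

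Ordered by level in 60M-GS, the starts ran Stfa2, Stfa1, Stfa3 and Csta2, and the order in 5M-GS was the same. Among the Stfa genes, the intervals of neighbours in this order overlapped at both ages. In 60M-GS, Csta2 lay apart with an upper bound of 33.2%, against a lower bound of 79.7% for Stfa3. The Csta2 difference minus that of Stfa1 was -51.5 points (-58.4 to -44.2). Minus that of Stfa2 it was -52.5 points (-60.7 to -43.7), and minus that of Stfa3 it was -49.5 points (-58.6 to -40.0). These contrasts are given without a test because the Csta2 side of each was chosen by its size.

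Along their whole spans the paralogs also stayed highly methylated. Stfa1 had 89.9% in 60M-GS, against 90.6% in 5M-GS (difference -0.657 points, -3.74 to 2.41). Stfa2 had 86.0% in 60M-GS, against 90.5% in 5M-GS (difference -4.47 points, -9.08 to 0.0257). Stfa3 had 88.4% in 60M-GS, against 90.6% in 5M-GS (difference -2.21 points, -5.90 to 1.37). Each of these 3 intervals includes 0.

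**Figure D2:**
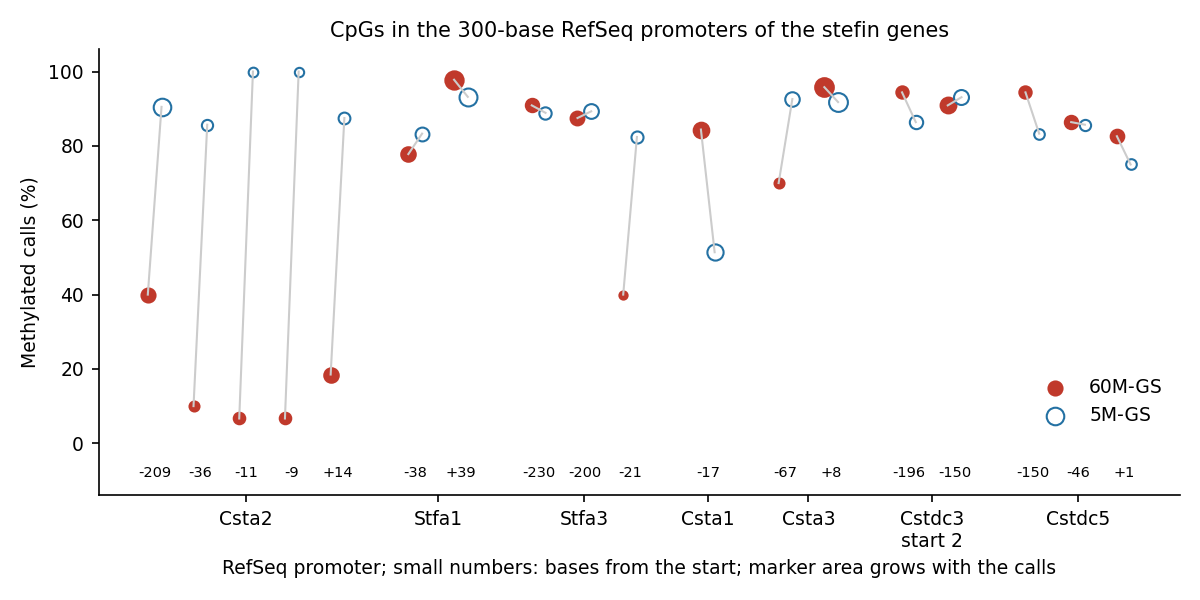
Percent of methylated calls (vertical axis) for CpGs in the 300-base RefSeq promoters of the stefin genes (horizontal axis, bases from the start beneath the points), for 60M-GS (filled, left of each pair) and 5M-GS (open, right of each pair), with marker area growing with the number of calls. Only CpGs with 5 or more calls in both tables are drawn, so no CpG of Cstdc4 appears. The Csta2 CpGs reach 6.67% in 60M-GS, whereas those of Stfa1 lie at 77.8% or more at both ages and the lowest of Stfa3, at 21 bases before its start, rests on 5 calls in 60M-GS.

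Among the other stefin-named genes of chromosome 16, no tested window was called either, although the intervals of the Cstdc3 and Csta1 starts leave out 0, in opposite directions. Counting Stfa1, Stfa2 and Stfa3 with them, 13 gene-end windows other than those of Csta2 could be tested, 7 at 5' ends and 6 at 3' ends. Of these, 0 were called lower and 0 higher, where the genome-wide shares are 0.282% and 3.39%, so a count of 0 in so few windows is near what the background gives. At an unadjusted p under 0.05, 2 passed. In all 13, the interval of the difference ended above a loss of 20 points. Their levels ran from 71.1% to 94.3% with a median of 89.9% in 60M-GS, and from 69.1% to 91.7% with a median of 89.5% in 5M-GS. Over all protein-coding ends the medians were 77.1% in 60M-GS, against 74.0% in 5M-GS. The median difference was -0.0116 points over the 13 windows and 0.0275 over all protein-coding ends.

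Among these genes, Cstdc3, a cystatin-domain gene between Stfa1 and Stfa2, had the lowest difference at its start. Its outermost annotated start had 79.7% in 60M-GS, against 90.9% in 5M-GS over 5 CpGs, a difference of -11.2 points (-19.9 to -3.31, adjusted p = 0.0375 by Fisher's exact test), which is under the 20-point limit. Depth moved with this value, at 24.6 calls per CpG in 60M-GS, against 37.4 in 5M-GS, and its part in the result was not tested. At the inner RefSeq start of Cstdc3 the 2 promoter CpGs had 92.2% in 60M-GS, against 90.2% in 5M-GS, and its 3' end had 90.8% at both ages.

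Csta3, a stefin A gene on the same strand, is the annotated gene that ends nearest upstream of the Csta2 loss, and had 94.3% in 60M-GS, against 89.2% in 5M-GS at that 3' end (difference 5.18 points, adjusted p = 0.295 by Fisher's exact test). At its own start Csta3 had 88.1% in 60M-GS, against 81.9% in 5M-GS (difference 6.20 points, -0.474 to 12.7). Csta1, beyond the 20 kb flank on the lower-coordinate side, had 90.3% in 60M-GS, against 83.4% in 5M-GS at its start (difference 6.90 points, 0.0456 to 13.7, adjusted p = 0.194 by Fisher's exact test). Its promoter has a single covered CpG, 17 bases before the start, with 84.4% of 32 calls in 60M-GS, against 51.4% of 35 calls in 5M-GS. Over the span of Csta1 the level was 89.8% in 60M-GS, against 79.2% in 5M-GS, a difference of 10.6 points (8.31 to 12.9), opposite in sign to the Csta2 start. The span of Stfa2l1 was lower, with 87.1% in 60M-GS, against 91.1% in 5M-GS (difference -4.00 points, -8.04 to -0.0383). Span differences were -2.67 points for Cstdc4, -2.32 for Cstdc5, -0.886 for Cstdc6, -0.738 for Csta3 and 0.302 for Cstdc3, each with an interval reaching both signs. Cstdc5, read from the minus strand, had 89.9% in 60M-GS, against 91.0% in 5M-GS at its start (difference -1.12 points, -5.82 to 3.51).

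The remaining ends were 3' windows or held too few CpGs for the test. Stfa2l1 had 85.2% in 60M-GS, against 89.5% in 5M-GS at its 3' end, and Cstdc4 had 71.1% in 60M-GS, against 69.1% in 5M-GS. The untested start of Stfa2l1 had 85.7% in 60M-GS, against 92.4% in 5M-GS, and that of Cstdc4 had 81.2% in 60M-GS, against 88.1% in 5M-GS. The untested 3' end of Cstdc5 had 86.7% in 60M-GS, against 87.5% in 5M-GS. Cstdc6, whose strand is not in the promoter table, had 83.7% in 60M-GS, against 92.3% in 5M-GS, at its upper-coordinate end, and 90.9% in 60M-GS, against 97.1% in 5M-GS, at its lower one. The 3' window of Csta1 held no covered CpG. Gm7260, a predicted protein-coding gene between Cstdc5 and Stfa2, had 75.3% in 60M-GS, against 82.1% in 5M-GS, at its 3' end (difference -6.85 points, adjusted p = 0.342 by Fisher's exact test). No untested window had a level in 60M-GS as low as that of the Csta2 start.

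**Figure D3:**
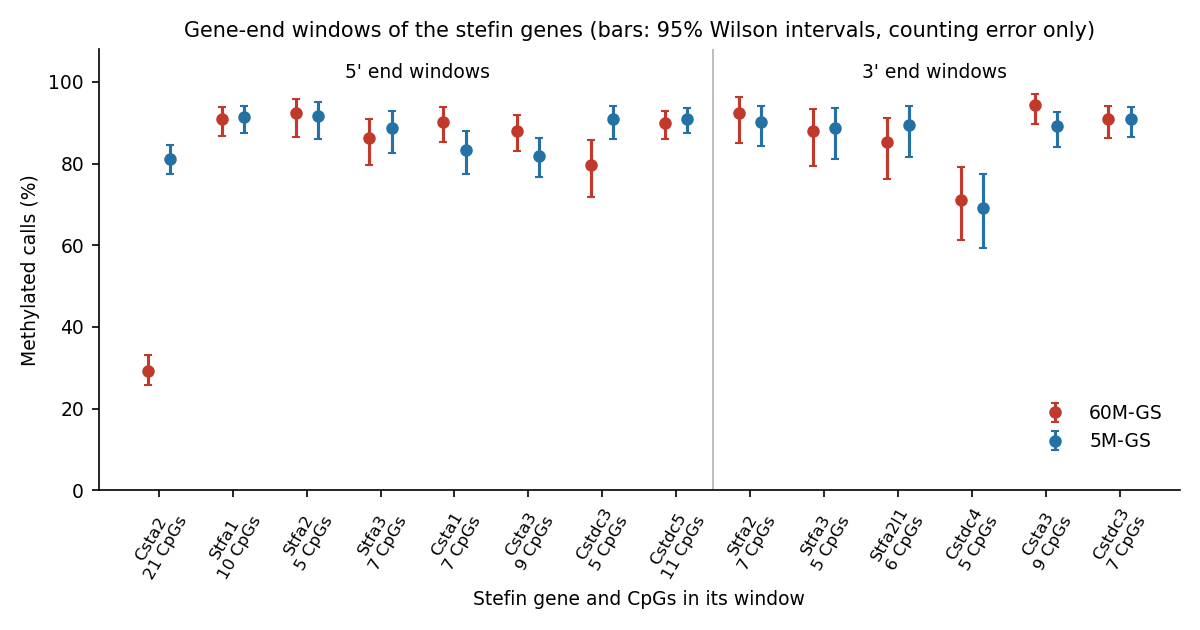
Percent of methylated calls (vertical axis, from 0) in the gene-end windows of the stefin genes (horizontal axis, with the number of CpGs in each), for 60M-GS (left of each pair) and 5M-GS (right of each pair), with bars for 95% Wilson intervals of counting error. Csta2 stands alone at 29.3% in 60M-GS against 81.2% in 5M-GS, while the other 13 tested windows lie between 69.1% and 94.3% at both ages.

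Across the interval as a whole the level was close to equal. From 20 kb below the Csta2 start to 20 kb above the Stfa3 start (chr16:36201562-36475392, 273831 bp, 1092 CpGs with 5 or more calls in both tables), it was 83.4% in 60M-GS, against 83.0% in 5M-GS, a difference of 0.420 points (-0.219 to 1.06). Without the flanks it was 86.9% in 60M-GS, against 87.6% in 5M-GS (difference -0.662 points, -1.33 to 0.00648). Without the Csta2 5' window but with the flanks it was 84.7% in 60M-GS, against 83.1% in 5M-GS (difference 1.62 points, 0.988 to 2.26). Leaving out the 21 CpGs of the Csta2 window thus turned a difference whose interval includes 0 into a small gain over the other 1071.

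In 1 kb tiles the losses were again at Csta2 and the gains lay outside the row of members. Of 127 tiles with at least 4 CpGs, out of 275, 2 were called lower in 60M-GS, where 0.475% of all 1689849 tiles of the genome were called lower, and 4 were called higher, where 3.48% were. The count of gains is therefore near the background. Both lower tiles hold the Csta2 loss that chose the gene and add nothing to it. They start at chr16 position 36221001 (27.7% in 60M-GS, against 82.2% in 5M-GS, 17 CpGs) and 36222001 (21.0% in 60M-GS, against 45.0% in 5M-GS, 4 CpGs). The tile just before them, from 36220001, had 60.7% in 60M-GS, against 76.0% in 5M-GS and was not called. With a minimum difference of 10 points, 3 tiles were called lower and 10 higher. Gains then also lay within the row of members, as in the tiles from 36228001 (16.4 points, inside Csta2), 36357001 (17.1 points) and 36389001 (17.4 points). In 110 of the 127 tiles the difference was within 10 points, and the median difference was -0.362 points, against -0.452 over all tiles of the genome.

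The strongest gain of the interval lay in the tile chr16:36209001-36210000, over the pseudogene Gm10913 and 403 bp from Csta3. Its 14 CpGs had 90.1% in 60M-GS, against 42.8% in 5M-GS, a difference of 47.3 points (40.8 to 53.1, adjusted p = 4.32e-37 by Fisher's exact test). The windows of both ends of Gm10913, which overlap that tile, had 90.9% in 60M-GS, against 52.0% in 5M-GS, and 89.1% in 60M-GS, against 62.2% in 5M-GS. This gain lies upstream of Csta3, on the far side from Csta2, and was of nearly the same size as the Csta2 loss with the opposite sign. The other gains lay beyond Stfa3, in the upper flank. The tile from 36461001, at 5609 bp from Stfa3, had 29.8% in 60M-GS, against 4.59% in 5M-GS (difference 25.2 points). The adjacent tiles from 36473001 and 36474001, at 17609 and 18609 bp from Stfa3, had 52.4% and 66.3% in 60M-GS, and 27.1% and 46.1% in 5M-GS. With the calls of each tile divided by its number of CpGs, a stricter count for calls that share reads, 0 of these gains and 1 of the Csta2 tiles were called.

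**Figure D4:**
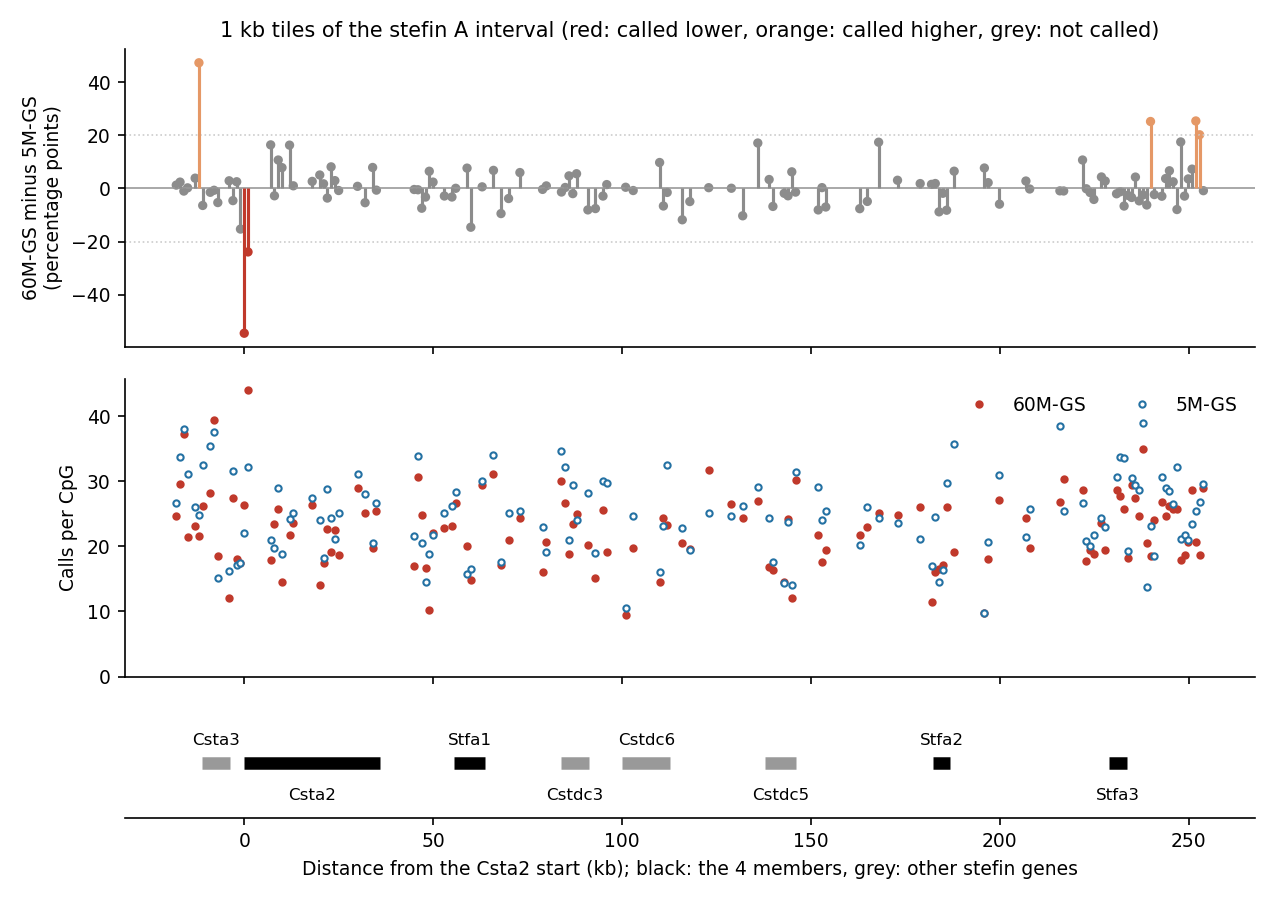
Difference in methylation of 1 kb tiles, 60M-GS minus 5M-GS in percentage points (top), calls per CpG for 60M-GS (filled) and 5M-GS (open) in the same tiles (middle), and the stefin genes with the 4 members in black and the others in grey (bottom), all by distance in kb from the Csta2 start. The 2 called losses (red) sit at the Csta2 start, the 4 called gains (orange) lie outside the row of members, and depth stays between 9.40 and 44 calls per CpG.

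Counts of single CpGs restate the loss that chose Csta2 and are given as a description. Of 955 CpGs covered by 10 or more calls at both ages, 59 were lower in 60M-GS by 20 points or more, where 3.22% of such CpGs were lower genome-wide, and 73 (7.64%) were higher, where 6.34% were. Within 1000 bp of the Csta2 start 17 of 18 were lower, and elsewhere in the interval 42 of 937 (4.48%). Of the 11 CpGs of the interval that were lower by 50 points or more, 10 lay within 1000 bp of that start. The remaining one, at chr16 position 36304851, is about 500 bp before the outermost start of Cstdc3 and had 30.8% of 13 calls in 60M-GS, against 86.4% of 22 calls in 5M-GS. Of the 18 CpGs at the Csta2 start, 3 had a level of at most 10% in 60M-GS. Among them was the CpG 190 bases after the start, which was near 0 at both ages. The CpGs at 11 and 9 bases before the start, with 6.67% in 60M-GS, had too few calls in 5M-GS to be counted here.

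Because several stefin copies are alike, reads could be gained from or lost to other copies, and calls per CpG were therefore compared. The Csta2 promoter itself was at most 45.0% identical to any other stefin promoter. Mean depth over the genome was 26.4 calls per CpG in 60M-GS, against 26.2 in 5M-GS, a ratio of 1.01. Chromosome 16 as a whole had a ratio of 0.917, and the interval had 23.0 calls per CpG in 60M-GS, against 25.3 in 5M-GS, a ratio of 0.907. The Csta2 window departed from both, with 26.6 calls per CpG in 60M-GS, against 22.3 in 5M-GS, which is 1.18 times the genome ratio and 1.30 times that of chromosome 16. Uneven depth was not confined to Csta2. Some other stefin windows departed further from the genome ratio, with lower depth in 60M-GS. These were the Stfa2 3' end (0.638 times the genome ratio), the outermost Cstdc3 start (0.653) and the Csta3 3' end (0.777). The Stfa1 start had 26.4 in 60M-GS, against 28.6 in 5M-GS, the Stfa2 start 26 in 60M-GS, against 29 in 5M-GS, and the Stfa3 start 20.7 in 60M-GS, against 21.3 in 5M-GS. Relative to the genome these ratios were 0.916, 0.890 and 0.966. By median calls those of Stfa1 and Stfa3 turned to 1.22 each, and relative to chromosome 16 they were 1.01 for Stfa1 and 1.06 for Stfa3, so the direction of their depth difference depended on the average and the scaling used. Depth at Csta2 was thus higher in 60M-GS where methylation was lower, and its part in the loss was not tested. In both tables the mean depth of the 4 starts lay between 0.901 and 1.26 times the genome median of calls per CpG.

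In lists of related genes, 0 windows were called lower, and with 0.282% of all protein-coding windows called lower so few windows would rarely hold one. Calls of a gain are read against the genome-wide share of 3.39%. Among other type 1 cystatins (Cstb, Csta1 and Csta3, of which Csta1 and Csta3 are counted above too), 0 of 5 windows were called lower and 1 higher. That window is the upper-coordinate end of Cstb, the gene of stefin B on chromosome 10, which had 76.7% in 60M-GS, against 25.2% in 5M-GS (difference 51.6 points, 47.1 to 55.7, adjusted p = 4.30e-91 by Fisher's exact test). The gain at this end of the stefin B gene was about as large as the loss at Csta2, and it was still called when calls were divided by the number of CpGs. Among 17 genes of the type 2 and type 3 cystatin families, 0 of 31 windows were lower and 2 higher. These were the start of Cst12 (89.7% in 60M-GS, against 55.0% in 5M-GS) and an end of Kng1, a kininogen (87.2% in 60M-GS, against 63.9% in 5M-GS).

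Papain-like cathepsins, the proteases that cystatins block, had 0 of 33 windows lower and 2 higher, beside shares of 0.282% lower and 3.39% higher over all protein-coding windows. Both were 3' ends of members of the placental cathepsin group, Ctsr (84.4% in 60M-GS, against 54.3% in 5M-GS) and Ctsq (89.6% in 60M-GS, against 68.7% in 5M-GS). Of 24 windows of chromosome 16 neighbours, 0 were lower and 1 higher, an end of Cd86, a costimulatory receptor of antigen-presenting cells (81.2% in 60M-GS, against 55.7% in 5M-GS). Of 24 windows of neutrophil genes, 0 were lower and 3 higher, beside the same shares of 0.282% and 3.39%, and counts this small do not set any of these lists apart. They were the start of Camp, the cathelicidin gene (84.8% in 60M-GS, against 54.4% in 5M-GS), and both ends of Cebpe, a transcription factor of granulocyte maturation (88.6% and 75.0% in 60M-GS, against 64.4% and 42.8% in 5M-GS). Median differences were -0.895 points for type 2 and type 3 cystatins, 1.22 for cathepsins, -0.104 for the neighbours and -1.68 for neutrophil genes, beside 0.0275 for all protein-coding windows. With divided calls 0 windows of these 4 lists were called in either direction.

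Few gene ends had a pair of levels like that of the Csta2 start. Of 37065 protein-coding windows compared, 6 lay within 10 points by Euclidean distance over the levels in 60M-GS and 5M-GS. The nearest was the 3' end of Asb2, an ankyrin-repeat subunit of ubiquitin ligases, with 28.2% in 60M-GS, against 81.3% in 5M-GS. It was followed by the 3' end of Txnrd1, the cytosolic thioredoxin reductase (34.5% in 60M-GS, against 81.2% in 5M-GS), and the start of Ssc4d, a scavenger-receptor family gene (36.1% in 60M-GS, against 84.3% in 5M-GS). The 3' ends of Gmfg, a regulator of actin branching (25.2% in 60M-GS, against 73.8% in 5M-GS), and of Slc5a11, a sugar transporter (36.9% in 60M-GS, against 75.3% in 5M-GS), came next. Of these 5 only Ssc4d shared with Csta2 that the window stood at a 5' end, and likeness over 2 pooled tables is a description only.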

How the data were processed

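Per the labels' protocols, the whole-genome bisulfite libraries used post-bisulfite adaptor tagging, and reads were processed with Bismark 0.10.0 and mm10, per the submitters' processing notes. Each deposited table lists CpGs with the counts of methylated and unmethylated calls and the percent methylated that the authors computed from them. The percent column was checked against the counts. Filters, deduplication and the treatment of reads that match several places are not stated in the labels or notes, and the last of these could affect alike copies. Replicates were pooled in the deposited tables.

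From the counts, levels were computed over CpGs covered by 5 or more calls at both ages, in 1 kb tiles and in windows from 1000 bp outside to 500 bp inside each annotated gene end. Where a region held 4 or more CpGs, a two-sided Fisher's exact test was run on its calls. P-values were adjusted by Benjamini-Hochberg over every region of that kind in the genome. The test was written for this purpose and checked against that of SciPy 1.17.1. The procedure was tested on simulated data. Levels have Wilson intervals and differences Newcombe intervals. Single CpGs needed 10 calls and had no test. Genes and promoter sequences came from RefSeq tables (GRCm38.p6, the build of mm10), promoters were aligned with Biopython 1.88, and a gene absent from the promoter table has no named strand. Tables were read with pandas 2.3.3.

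Members, gene lists and thresholds were chosen with earlier results of these data known. Named genes were the members, every other gene of the interval, up to 4 called genes of each list and the 5 windows most like that of Csta2 without predicted genes. Csta1, Stfa2l1 and Cstdc4 were added as chromosome 16 paralogs. Of the 5 snRNA genes of the interval, no tested end was called. Chromosome Y and protein sequences were not analysed here.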

Additional observations from a re-analysis of the deposited data

How the results depend on the processing

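Under every alternative tried in its window, call minimum, depth limit or averaging, the Csta2 start was lower in 60M-GS and no window of Stfa1, Stfa2 or Stfa3 was called. The depth limit left out no CpG of these windows, and averaging changed levels but not p-values, so neither put the calls to a test. Of 105 values under alternatives, 17 moved by more than the limit set for their kind. A reversal of sign could be recorded only for the Csta2 window, and none was. Uncalled differences near 0 changed sign. In the window from 2000 bp outside to 1000 bp inside, the Stfa2 start turned to -0.812 points, its 3' end to -1.29 and the Stfa3 3' end to 3.07, and the last was 4.54 as the mean of single CpG levels. The Csta2 difference moved to -34.2 points in a window from 2000 bp outside to 1000 bp inside, which takes in CpGs beyond the loss. The interval difference changed sign, to -0.662 points, without flanks. Tiles called higher numbered 7 at 500 bp, 2 at 2000 bp, 10 with a minimum difference of 10 points and 0 with calls divided by the number of CpGs, which leaves fewer calls to test, and tiles called lower then numbered 1. Divided calls also left 0 windows called higher among the neighbours, the neutrophil genes, the cathepsins and the type 2 and type 3 cystatins, of which 1 was called with at least 10 calls per CpG. Single CpGs with at least 20 calls, fewer in number, gave 41 higher and 26 lower by 20 points. By median calls per CpG the depth ratio relative to the genome turned to 1.22 at Stfa1 and 1.22 at Stfa3. Relative to chromosome 16 it turned to 1.01 at Stfa1 and 1.06 at Stfa3, and that of the interval was 0.989. No paired analysis was possible because the tables pool the replicates, and for the same reason no replicate could be left out. The few CpGs of the Stfa starts, 5 to 10 each, limit what a small change there could show.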

Other observations

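Beyond the stefin genes, 3 promoters of the RefSeq table share a run of 20 or more bases with the Csta2 promoter, all of long noncoding RNA genes and none on chromosome 16. They were sought after the Csta2 values had been seen. Gm28321 on chromosome 1 shares 66 bases, and the 5 covered CpGs of its promoter had 1.19% of 84 calls methylated in 60M-GS, against 0 of 89 calls in 5M-GS. Gm7967 on chromosome 1 shares 72 bases, with 18.5% of 27 calls in 60M-GS and 0 of 32 calls in 5M-GS over 2 CpGs. Gm23952 on chromosome 13 shares 60 bases in the opposite orientation, with 28.6% of 56 calls in 60M-GS and 25% of 44 calls in 5M-GS over 4 CpGs. Their mean depth was 13.5 to 16.8 calls per CpG in 60M-GS and 11 to 17.8 in 5M-GS. In 5M-GS all of these copies were far less methylated than the Csta2 promoter, at 91.0%. Whether reads of these copies were counted at Csta2, where depth was higher in 60M-GS, was not tested. Only the 300-base promoters were searched, so whether these copies share sequence with Csta2 beyond them is not known.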
